A study of Mus musculus with 48 samples.

Results

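The libraries described here are the 12 left nodose ganglion libraries taken in the dark phase, of 48 libraries in a mouse study. They were chosen by tissue, genotype and time in the sample labels, with no use of measured values. The Control libraries (6) and the HepDKO libraries (6) each came from ZT16 and ZT22 (zeitgeber time, in hours from lights on), with 3 libraries per genotype and time. All mice were male C57Bl/6J, carried floxed alleles of both Rev-erb genes (Reverb a/b fl/fl, Nr1d1 and Nr1d2), ate chow and lived at 27 °C in 12 h of light and 12 h of dark. At 6 to 10 weeks of age they received a tail vein injection of AAV8-TBG-EGFP (Control) or AAV8-TBG-Cre (HepDKO), 2 to 4 weeks before collection, and the labels give an age of 10 to 12 weeks. The TBG promoter is active in hepatocytes, so the virus was aimed at the liver, and the Control mice also carried the unrecombined floxed alleles and received a virus. Each library is a pool of left nodose ganglia from 4 mice, prepared from 500 ng of total RNA after removal of ribosomal RNA, so differences between the mice of a pool are not seen. The question, as the series title gives it, is whether a liver clock reaches vagal sensory neurons and through them the daily pattern of feeding; what is tested here is whether nodose RNA differed between the genotypes at night, when mice eat.

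REV-ERBα (Nr1d1) and REV-ERBβ (Nr1d2) are heme-binding nuclear receptors that repress transcription. They bind sites in the promoter of Arntl, whose protein BMAL1 drives the Per and Cry genes, and in liver they also repress genes of lipid metabolism. The nodose ganglion holds the cell bodies of vagal sensory neurons, wrapped by satellite glia and crossed by myelinated axons, and some of these neurons innervate the liver and gut. The ganglion is small and lies against blood vessels, muscle and fat of the neck, so a dissected sample can hold RNA of those tissues.

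The 12 libraries held between 2889210 and 8967919 counts, with a median of 6641665. Neuronal transcripts were scarce. Listed general neuron markers took a median of 0.008% of counts. Snap25, a synaptic vesicle fusion protein of all neurons, ranged from 2.91 to 14.8 CPM (counts normalised to 1e+06 per library with TMM size factors), while listed myelinating Schwann cell markers took from 2.09% to 5.14% of counts. Of 30 listed markers of vagal sensory neurons 8 had enough counts to be tested. The labelled tissue was therefore visible mainly through its Schwann cells, and few counts came from neurons. In bulk RNA, fewer cells of a type and less RNA per cell cannot be told apart. After their values were seen, 3 libraries were taken to stand apart from the others: Control ZT16 replicate 3 in muscle content, Control ZT22 replicate 1 in stress-responsive genes and HepDKO ZT22 replicate 3 in ribosomal precursor RNA (Rn45s, 69200 CPM against at most 16400 in the other HepDKO libraries). Values without 1 or all of them are given beside many of the results below. Another library, HepDKO ZT22 replicate 1, had 445 CPM of Muc5b, a secreted mucin of mucous glands and airways, against 1.90 to 10.2 CPM in the other 11 libraries. It was not among the 3, and was left out in turn like every other library.

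Skeletal muscle RNA took a large and uneven part of the counts, and more of them in HepDKO on average. The 26 listed muscle genes, which encode contractile proteins and enzymes of fast and slow fibres, took 8.85%, 12% and 1.98% of counts in the Control ZT16 libraries and 8.29%, 8.18% and 16.7% in the Control ZT22 libraries. In HepDKO they took 9.81%, 16.2% and 13.6% at ZT16 and 8.85%, 12.7% and 17.8% at ZT22. The mean share was 9.33% ± 4.86 (SD, n = 6) in Control and 13.2% ± 3.49 in HepDKO, and the groups overlapped: 1 Control library was far below all others and another lay among the highest. The adipocyte list, with genes such as Adipoq and Plin1, took 0.222% ± 0.0968 in Control and 0.253% ± 0.104 in HepDKO. Its lowest library was Control ZT22 replicate 2 (0.0744%) and its highest HepDKO ZT16 replicate 1 (0.386%). Myelinating Schwann cell genes took 3.42% ± 1.21 of counts in Control and 2.91% ± 0.716 in HepDKO. A muscle score and a fat score, each the mean log2(CPM + 1) of 5 genes, were 11.2 ± 1.21 and 5.78 ± 0.961 in Control and 12 ± 0.542 and 6.07 ± 0.587 in HepDKO. These scores were also used as covariates, and values with them are given beside the main gene groups. The muscle score is built from 5 genes of the muscle list and the fat score from 5 of the adipocyte list.

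**Figure D1:**
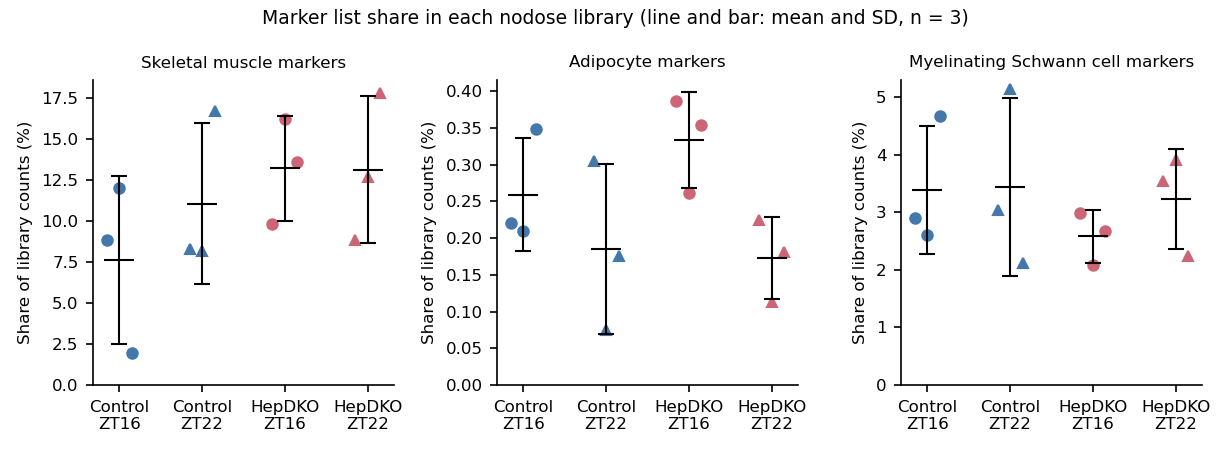
Share of counts (percent) taken by listed skeletal muscle, adipocyte and myelinating Schwann cell genes, with 1 point for each of the 12 dark-phase libraries and the mean ± SD (line and bar) of the 3 in each group. Muscle shares run from 1.98% to 17.8%, and the Control and HepDKO points overlap for each of these lists.

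No gene passed the test between HepDKO and Control in the dark phase after adjustment over all genes. The model had genotype and time of day, and 0 of 14431 genes (0%) had an adjusted p under 0.05 in edgeR's quasi-likelihood F test (Benjamini-Hochberg), the smallest being 0.869. That smallest adjusted p moved with the setting of the edgeR fit: it was 0.0745 with the fat score, 0.0752 without Control ZT22 replicate 2, 0.103 with all 24 nodose libraries, and 1 with the muscle score. At an unadjusted p under 0.05 there were 785 genes (5.44%), of which 415 (2.88%) were higher and 370 (2.56%) lower in HepDKO. Of all log2 differences 49.2% were above 0 and 50.8% below, and their median was -0.00327. Leaving out single libraries gave between 509 (without HepDKO ZT16 replicate 3) and 1320 (without Control ZT22 replicate 3) genes at that level, 511 without Control ZT22 replicate 1 and 1237 without HepDKO ZT22 replicate 1, with 0 past the threshold each time. In these fits the share of all genes at that level was between 1.8% and 5.66% for higher and between 1.57% and 4.77% for lower genes. DESeq2 on the same counts called 1 gene, Mir6236, with a log2 difference of -4.45 (SE 0.929, adjusted p 0.0234), and limma-voom called 0. In simulated counts with the depths and spread of these libraries, among 14250 genes, the same fit recovered 22% of genes changed 1.5-fold and 76% of those changed 2-fold. Changes below 2-fold in single genes could therefore be missed at this number of libraries.

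Both floxed genes were measured first. Nr1d1 had 15, 17.5 and 27.1 CPM in Control (lowest, median and highest of 6 libraries) and 11.5, 17.3 and 26 CPM in HepDKO. Nr1d2 had 39.9, 64.4 and 135 CPM in Control and 38.7, 77.3 and 146 CPM in HepDKO. The genotypes overlapped for both genes, and the lowest HepDKO library lay below the lowest Control library for each. For Nr1d1 the log2 difference of HepDKO over Control was -0.04 (SE 0.182), and the edgeR F test gave an adjusted p of 0.985. For Nr1d2 it was 0.07 (SE 0.158), with 0.965 as the adjusted p in edgeR, or -0.07 with both scores. At ZT16 and ZT22 the log2 differences were -0.25 and 0.17 for Nr1d1 and 0.10 and 0.04 for Nr1d2, and in the light phase they were 0.16 and 0.06. The virus was aimed at hepatocytes, so these values do not check the deletion, which was not measured in these samples.

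The 10 higher and 10 lower genes with the lowest p are described next, with no claim that any of them changed. Their log2 differences were between 0.375 and 4.45 in size, and each had an adjusted p of 0.869 in edgeR's quasi-likelihood F test (Benjamini-Hochberg). In 4 of the 10 higher genes every HepDKO library lay above every Control library, and in 4 of the 10 lower genes every one lay below. Over all genes tested, 0.104% showed the first pattern and 0.215% the second. These genes were picked by p from the same values, so the separation is a description. The RefSeq models of 14 of the 20 overlap another gene, and whether the authors counted by strand is not given in the sources used here, so reads could be shared with the neighbour.

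Among the higher genes were regulators of development and enzymes of mitochondria. Tbx3 (chr5:119670534-119684724 in GRCm38.p6), a T-box repressor, had 10.4, 11.8 and 12.9 CPM in Control and 13.8, 19.8 and 23.9 CPM in HepDKO. All 6 HepDKO libraries lay above the highest Control library. Its log2 difference was 0.71 (SE 0.159, unadjusted p 0.000526 in edgeR's quasi-likelihood F test), or 0.58 with both scores. Rarb, a retinoic acid receptor, had 13, 18.6 and 20.4 CPM in Control and 20.6, 24.1 and 26.4 CPM in HepDKO, again without overlap (log2 difference 0.47, SE 0.123). Mlst8, a subunit of both mTOR complexes (chr17:24473550-24479114), had 5.4, 6.96 and 7.46 CPM in Control against 8.6, 10.1 and 10.4 CPM in HepDKO (log2 difference 0.55, SE 0.138, and 0.55 with both scores). Decr1 (chr4:15917240-15945377) encodes a mitochondrial reductase needed to oxidise polyunsaturated fatty acids. It had 56.3, 72.6 and 83.2 CPM in Control and 86.9, 92.5 and 125 CPM in HepDKO. The log2 difference of Decr1 was 0.51 (SE 0.135) without and 0.39 with both scores. Gpd2, the mitochondrial glycerol-3-phosphate dehydrogenase, had 67.9, 77.2 and 100 CPM against 92.8, 109 and 131 CPM, with overlap at the edges (log2 difference 0.47, SE 0.117, or 0.35 with both scores). Acad11, an acyl-CoA dehydrogenase, also overlapped between the genotypes (log2 difference 0.49, or 0.34 with both scores). The other 4 were 0610009L18Rik (0.84), Tarbp1 (0.41), Lingo3 (1.5) and Ciapin1 (0.50). Of these Lingo3 was barely detected, with 0, 0.902 and 1.74 CPM in Control and 0.884, 1.98 and 6.54 CPM in HepDKO.

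The lower genes included transcription factors, a neuropeptide receptor and an mRNA decay factor. Eya2 (chr2:165595028-165771727), a transcriptional coactivator and phosphatase active in muscle and sensory development, had 29.8, 44.3 and 53.3 CPM in Control and 25.0, 28.1 and 33.7 CPM in HepDKO. Its lowest Control library lay inside the HepDKO range. The log2 difference was -0.55 (SE 0.122, unadjusted p 0.000509 in edgeR's quasi-likelihood F test), and -0.62 with both scores. Klf5 (chr14:99298691-99313412), a zinc finger factor of epithelia and smooth muscle, had 63.7, 74.0 and 86.1 CPM in Control and 45.2, 49.6 and 63.6 CPM in HepDKO. The groups just failed to meet (log2 difference -0.48, SE 0.114). Zfp36 (chr7:28376784-28379228) encodes tristetraprolin, which binds and destabilises cytokine mRNAs. It had 29.3, 32.7 and 59.6 CPM in Control and 20.3, 23.6 and 27.2 CPM in HepDKO, without overlap (log2 difference -0.63, SE 0.165, or -0.44 without Control ZT22 replicate 1). Galr2, a receptor for the neuropeptide galanin (chr11:116280106-116283950), had 1.12, 1.69 and 2.43 CPM in Control and 0.409, 0.666 and 1.07 CPM in HepDKO, a level of a few counts per library (log2 difference -1.30, SE 0.323). Ror1, a receptor for Wnt5a, had 25.8, 32.7 and 34.7 CPM against 22, 24.4 and 25.5 CPM, again without overlap (log2 difference -0.38, SE 0.0977). The other lower genes were Rassf7 (-0.72), Map7d2 (-0.83), Adh7 (-0.73), Lars2 and Mir6236.

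Lars2 and Mir6236 had the largest spread. Lars2, the mitochondrial leucyl-tRNA synthetase (chr9:123366927-123462675), had 47.7, 99.8 and 460 CPM in Control and 22.3, 28.7 and 56.9 CPM in HepDKO. Whether these counts come from Lars2 mRNA was not tested. Mir6236 (chr9:110281287-110281409) is annotated as a microRNA, and its counts in total RNA libraries can hold fragments of ribosomal RNA. It had 5.12, 19.8 and 351 CPM in Control and 0.632, 1.61 and 13.1 CPM in HepDKO. In both genes Control ZT22 replicate 1 was highest and the genotypes overlapped. The dark log2 differences were -2.24 (SE 0.491) and -4.45 (SE 1.02), or -1.58 and -2.70 without Control ZT22 replicate 1, and in the light-phase libraries at ZT4 and ZT10 the differences had the other sign, 2.69 and 2.72.

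**Figure D2:**
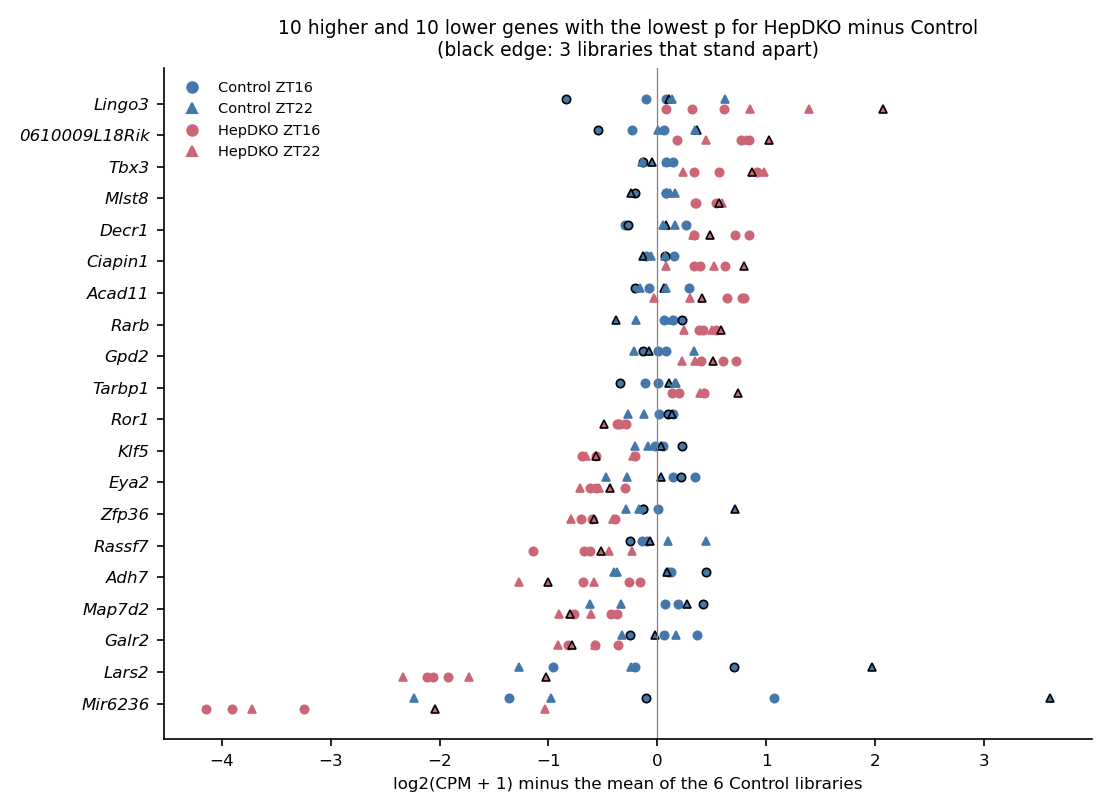
Level of the 20 leading genes in each of the 12 libraries, as log2(CPM + 1) minus the mean of the 6 Control libraries, with colour for genotype and shape for time; black edges mark the 3 libraries that stood apart. HepDKO points lie right of all Control points for Tbx3, Mlst8, Rarb and Decr1 and left of them for Klf5, Galr2, Ror1 and Zfp36, and none of these genes passed the test.

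Each dark time was also compared alone, with 3 libraries against 3. At ZT16, 0 genes passed (0%) and 609 had an unadjusted p under 0.05 (4.22%), with a smallest adjusted p of 0.938 in edgeR's quasi-likelihood F test (Benjamini-Hochberg). The lowest p was that of Nnat, an imprinted gene for a small membrane protein of the endoplasmic reticulum. It had 20.2, 17.1 and 22.8 CPM in Control and 9.21, 10.2 and 9.85 CPM in HepDKO at ZT16, well separated. Its log2 difference at ZT16 was -1.02 (SE 0.184), and DESeq2 called it with an adjusted p of 0.0475, the 1 gene that DESeq2 called there. Eya2 was next (-0.74 at ZT16 and -0.35 at ZT22), followed by Fzd2, a Wnt receptor, with 133, 125 and 136 CPM in Control and 97.3, 82.2 and 93.4 CPM in HepDKO at ZT16 (log2 difference -0.52).

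At ZT22, 0 genes passed (0%) and 383 had an unadjusted p under 0.05 (2.65%), with a smallest adjusted p of 0.961 in that edgeR F test. The lowest p belonged to 2 genes of immune cells and 1 of mineralised tissue. Cytip, a protein of lymphocyte adhesion and trafficking, had 3.44, 4.32 and 3.73 CPM in Control and 8.01, 9.41 and 7.09 CPM in HepDKO at ZT22 (log2 difference 1.09, SE 0.265). Bst2, or tetherin, an interferon-induced protein that holds budding viruses at the cell surface, had 4.71, 4.64 and 3.73 CPM in Control and 8.14, 7.37 and 14.5 CPM in HepDKO (log2 difference 1.17, SE 0.287). Ibsp, a bone matrix protein, had 1.72, 3.04 and 3.48 CPM against 0.394, 0.409 and 0.182 CPM (log2 difference -2.94), which is 14 to 19 counts in each Control library against 1 to 3 in each HepDKO library. The interaction, which compares the genotype effect at ZT22 with that at ZT16, passed for 0 genes (0%), with 316 at an unadjusted p under 0.05 (2.19%) and a smallest adjusted p of 0.993 in edgeR's quasi-likelihood F test (Benjamini-Hochberg). The lowest interaction p values were those of Erbb4 (-1.89), Chchd6 (1.25) and Tmem158 (1.84), given as ZT22 minus ZT16 on the log2 scale.

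The same 12 libraries did resolve time of day. Between ZT16 and ZT22, averaged over genotypes, 15 genes (0.104%) passed in edgeR's quasi-likelihood F test (Benjamini-Hochberg), 7 higher and 8 lower at ZT22, and 8 of them are in the core clock list. Arntl rose from 15.1 ± 3.82 CPM (SD, n = 3) to 46.1 ± 5.36 CPM in Control and from 21.7 ± 6.32 to 48.1 ± 6.69 CPM in HepDKO, a log2 change of 1.39 (adjusted p 0.0037 in that edgeR F test). Per3, a clock repressor, fell from 119 ± 17.4 to 38.2 ± 5.58 CPM in Control and from 108 ± 17.2 to 38.2 ± 8.58 CPM in HepDKO (log2 change -1.57, adjusted p 0.000176 in that edgeR F test). Per2 went from 83.5 ± 19 to 24.4 ± 15.2 CPM in Control and from 65.9 ± 2.44 to 14.4 ± 3.28 CPM in HepDKO (log2 change -1.96). Nr1d2 itself fell from 110 ± 31.8 to 45.4 ± 8.13 CPM in Control and from 118 ± 24.8 to 46.7 ± 7.34 CPM in HepDKO (log2 change -1.31). Also lower at ZT22 were the PAR-bZIP factors Dbp (-1.52), Hlf (-0.83) and Tef (-0.74), Lonrf3 (-1) and Tsku (-1.14). Npas2 (2.01), which pairs with BMAL1, Cirbp (0.79), a cold-inducible RNA-binding protein, Fgfr2 (1.03), Mettl27 (1.11), Fbn1 (0.62) and Mmp14 (0.59) were higher. The number of genes past the threshold was 40 without HepDKO ZT22 replicate 3 and 11 and 19 without Control ZT16 replicate 3 and Control ZT22 replicate 1. It was between 5 and 7 without any 1 of the other 9 libraries.

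The clock list itself had differences on both sides of 0. Of 23 core clock genes tested, 11 had a log2 difference above 0 and 12 below, with a median of -0.01, and 4 had an unadjusted p under 0.05, of which Per1, Per2 and Tsc22d3 had lower estimates in HepDKO, beside 2.88% of all genes higher and 2.56% lower at that level. The median was -0.03 without the 3 libraries that stood apart. Per1 and Tsc22d3 respond to glucocorticoids as well as to the clock.

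Every gene of the glucocorticoid-responsive list had a lower estimate in HepDKO, and 1 Control library carried much of the size. Glucocorticoids reach a daily peak near the start of the active phase and act through the glucocorticoid receptor, which binds palindromic elements. All 15 genes of the list were tested, 15 had a log2 difference below 0, and 7 had an unadjusted p under 0.05 with HepDKO lower, beside 2.56% of all genes. The median log2 difference was -0.56, against -0.00327 over all genes. Without Control ZT22 replicate 1, which was the highest of the 12 libraries for 14 of the 15 genes, the median was -0.25, with 14 genes below 0 (50.5% of all genes) and 5 at an unadjusted p under 0.05 (1.57% of all genes). With both scores the median was -0.83 (13 genes at an unadjusted p under 0.05, beside 3.36% of all genes lower in that fit), and without the 3 libraries that stood apart it was -0.35 (7 genes, beside 2.55%). Without Control ZT22 replicate 2, 11 genes had an unadjusted p under 0.05. The medians were -0.35 at ZT16, -0.68 at ZT22 and -0.05 in the light-phase libraries. At ZT22 the mean log2(CPM + 1) over the list was 7.73, 6.11 and 6.47 in Control replicates 1, 2 and 3. In HepDKO it was 6.06, 6.03 and 6.21, so Control replicate 1 carried much of the ZT22 value. No member passed after adjustment, and the list and its direction were known from earlier work on these data.

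Per1 (chr11:69095108-69109965), a clock gene with direct glucocorticoid induction, had 59.9, 62.2 and 132 CPM in Control and 37.3, 48.6 and 60.0 CPM in HepDKO. The groups overlapped only between 59.9 and 60.0 CPM, and the log2 difference was -0.68 (SE 0.191, unadjusted p 0.00307 in edgeR's quasi-likelihood F test) or -0.47 without Control ZT22 replicate 1. Tsc22d3, which encodes the anti-inflammatory protein GILZ, had 216, 329 and 667 CPM in Control and 203, 237 and 346 CPM in HepDKO (log2 difference -0.67, SE 0.244). The metallothioneins, small proteins that bind zinc, are neighbouring genes on chromosome 8. Mt1 (chr8:94178883-94180327) had 29.6, 68.0 and 146 CPM in Control and 22.7, 39.1 and 55.8 CPM in HepDKO (log2 difference -1.03, SE 0.326). Mt2 (chr8:94172618-94173567) had 25.8, 108 and 270 CPM against 15.6, 41.0 and 81.6 CPM (log2 difference -1.60, SE 0.525, and -0.78 without Control ZT22 replicate 1). Both overlapped between the genotypes. Ddit4, an inhibitor of mTORC1, had 34.3, 41.5 and 126 CPM against 26.1, 26.5 and 46.5 CPM (log2 difference -0.90), and Errfi1, a feedback inhibitor of EGF receptor signalling, had 61.1, 68.4 and 131 CPM against 37.6, 55.5 and 63.3 CPM (-0.56). Nfkbia, the inhibitor of NF-κB, had a log2 difference of -0.44. The most variable member was Pdk4, a kinase that shuts off pyruvate oxidation, with 94.3, 348 and 1300 CPM in Control and 129, 221 and 475 CPM in HepDKO (log2 difference -0.71, unadjusted p 0.286 in that edgeR F test). The 1300 CPM was in Control ZT22 replicate 1, and the next Control library had 626 CPM. Dusp1, a phosphatase that ends MAP kinase signalling, had a log2 difference of -0.24, which was 0.07 without Control ZT22 replicate 1.

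**Figure D3:**
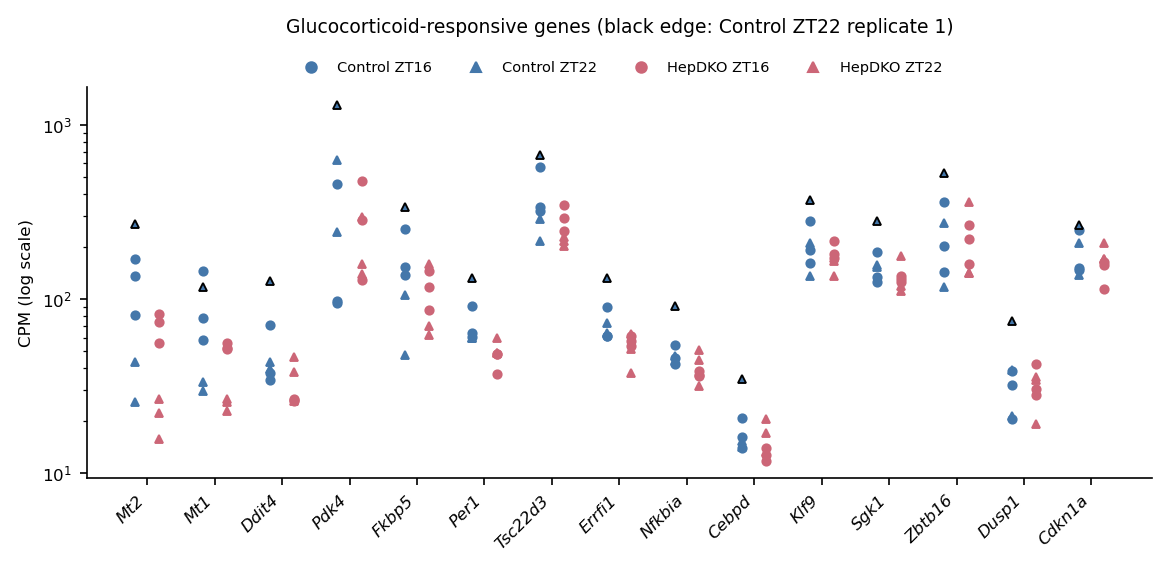
Levels of the 15 glucocorticoid-responsive genes in CPM on a log axis, 1 point per library by genotype and time, with a black edge on Control ZT22 replicate 1. That library is the highest of the 12 for 14 of the 15 genes, Per1 (132 CPM) among them and Mt1 the exception.

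Promoters of a clock-driven, a hormone-driven and an interferon-driven gene of these results are shown as examples of the elements that the listed factors read. The windows run from 250 bases before to 50 bases after a start site of the RefSeq GRCm38.p6 promoter table, which in Per1 and Mt1 lies inside the gene span given above, since a span covers all transcript models, and capitals mark the letters searched on both strands. They are the E-box CACGTG read by CLOCK and BMAL1 in Per1 (chr11:69098699-69098998, plus strand, 166 bases before the more upstream of 2 starts in the promoter table), a core of the glucocorticoid response element in Mt1, searched as ACA and TGT with any 3 bases between them, G at 2 bases before and C at 2 bases after (chr8:94178839-94179138, plus strand, 94 bases before the start), and a core of the interferon element in Bst2, searched as a repeated GAAA with any 2 bases between (chr8:71537423-71537722, minus strand, where 2 matches at 130 and 124 bases before the start overlap).
Per1: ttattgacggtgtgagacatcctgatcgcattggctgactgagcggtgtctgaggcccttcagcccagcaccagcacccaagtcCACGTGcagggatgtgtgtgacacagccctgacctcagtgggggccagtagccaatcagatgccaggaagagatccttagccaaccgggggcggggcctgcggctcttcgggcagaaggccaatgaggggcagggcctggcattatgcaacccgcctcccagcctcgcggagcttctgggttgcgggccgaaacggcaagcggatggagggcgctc
Mt1: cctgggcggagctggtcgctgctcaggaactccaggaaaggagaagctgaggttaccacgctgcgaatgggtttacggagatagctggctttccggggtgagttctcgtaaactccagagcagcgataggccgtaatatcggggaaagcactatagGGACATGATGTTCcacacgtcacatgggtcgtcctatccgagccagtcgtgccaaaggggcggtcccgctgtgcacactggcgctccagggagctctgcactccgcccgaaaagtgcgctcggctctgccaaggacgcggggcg
Bst2: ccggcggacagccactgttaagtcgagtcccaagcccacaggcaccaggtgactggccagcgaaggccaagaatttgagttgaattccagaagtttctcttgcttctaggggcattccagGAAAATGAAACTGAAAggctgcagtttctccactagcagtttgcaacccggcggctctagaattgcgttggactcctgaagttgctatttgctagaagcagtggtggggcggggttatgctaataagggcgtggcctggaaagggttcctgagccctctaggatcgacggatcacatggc
Of 32851 promoters, 7.15% held the E-box, 0.475% the glucocorticoid element core and 3.44% the interferon element core. Of the 13 glucocorticoid-responsive genes with a promoter in the table, 4 held the E-box (Dusp1, Fkbp5, Per1 and Sgk1) and 2 the glucocorticoid element core (Mt1 and Sgk1). The interferon element core was in 15 of 26 interferon-stimulated genes, and the E-box in 5 of 20 clock genes. A match is only a match of letters in this window.

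Genes of mitochondrial energy supply had higher estimates in HepDKO, and muscle RNA was also higher there on average. Fatty acid oxidation breaks acyl chains into acetyl-CoA inside mitochondria, and oxidative phosphorylation turns the electrons gained into ATP; both are highly active in muscle. Of 24 genes of fatty acid oxidation and ketone use tested, 18 had a log2 difference above 0 and 13 an unadjusted p under 0.05 with HepDKO higher, beside 2.88% of all genes, while 2 were lower at that level. The median was 0.41. It was 0.23 with both scores (5 higher, 1 lower at an unadjusted p under 0.05, where 2.35% of all genes were higher) and 0.26 without the 3 libraries that stood apart (6 higher, 1 lower, where 2.23% were higher). The median was 0.65 at ZT16, 0.17 at ZT22 and 0.06 in the light phase, and the difference between these medians was not tested.

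Slc25a20, the carrier that brings acylcarnitines into mitochondria, had 21.3, 28.0 and 32.8 CPM in Control and 27.2, 41.9 and 59.3 CPM in HepDKO. The upper HepDKO libraries exceeded all Control ones, and the log2 difference was 0.62 (SE 0.18), or 0.38 with both scores. Acadm, the medium-chain acyl-CoA dehydrogenase, had 132, 157 and 204 CPM against 175, 231 and 328 CPM (log2 difference 0.56, SE 0.165, or 0.34 with both scores). The dehydrogenases for long and very long chains, Acadl (0.57) and Acadvl (0.76), the electron carriers Etfa (0.56), Etfb (0.69) and Etfdh (0.63), Cpt2 (0.66), the trifunctional protein genes Hadha (0.45) and Hadhb (0.45), Hadh (0.38), Acaa2 (0.50) and Acat1 (0.37) also had an unadjusted p under 0.05. Cpt1a, the liver form of the carnitine palmitoyltransferase that gates entry of fatty acids, had the other sign at the same level, with 68.3, 70.6 and 72.2 CPM in Control and 37.4, 56.9 and 70.1 CPM in HepDKO (log2 difference -0.32, SE 0.122). Its HepDKO median lay below all Control values and the groups overlapped.

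Nuclear genes of oxidative phosphorylation had the same sign in most members, and their median was smaller with the scores. Of 71 tested, 68 had a log2 difference above 0 and 14 an unadjusted p under 0.05, with HepDKO higher in each, beside 2.88% of all genes; the median was 0.39. With both scores the median was 0.07 and 0 genes had an unadjusted p under 0.05. Without the 3 libraries that stood apart the median was 0.12, again with 0 genes. The count of 14 swung with single libraries: 0 without HepDKO ZT22 replicate 3, 2 without Control ZT16 replicate 1 or 3, Control ZT22 replicate 1 or 2, or HepDKO ZT16 replicate 2 or 3, and 29, 43 and 44 without Control ZT16 replicate 2, HepDKO ZT22 replicate 1 and Control ZT22 replicate 3. In these 12 fits the share of all genes that were higher at an unadjusted p under 0.05 ran from 1.8% to 5.66%, and was 5.66% without Control ZT22 replicate 3. All 14 genes overlapped between the genotypes. Atp5b, the catalytic subunit of ATP synthase, had 604, 896 and 1340 CPM in Control and 869, 1240 and 1950 CPM in HepDKO (log2 difference 0.47, SE 0.216, or 0.18 with both scores). Sdhb, the iron-sulfur subunit of complex II, had 70.4, 111 and 182 CPM against 115, 170 and 345 CPM (log2 difference 0.68, SE 0.262, or 0.31 with both scores). The other 12 were the complex I genes Ndufb3 (0.58), Ndufb6 (0.50), Ndufs1 (0.52), Ndufs3 (0.45), Ndufs4 (0.49) and Ndufv1 (0.71), the complex II genes Sdhc (0.47) and Sdhd (0.46), the complex III genes Uqcrc1 (0.67), Uqcrfs1 (0.65) and Cyc1 (0.55), and the ATP synthase gene Atp5a1 (0.56). Control ZT16 replicate 3, the library poorest in muscle RNA, was the lowest of the 12 for 62 of the 71 genes, and HepDKO ZT22 replicate 3, the richest, was the highest for 41. Muscle markers had the same sign: 23 of 24 tested had a log2 difference above 0 with a median of 0.63, which was 0.03 with both scores, one of them built from genes of this list, and 0.07 without the 3 libraries that stood apart. Without Control ZT16 replicate 3 alone the muscle median was 0.37. Myh4, the myosin of the fastest fibres, had 2010, 13200 and 16300 CPM in Control and 12000, 14600 and 28000 CPM in HepDKO (log2 difference 0.70, SE 0.446, or 0.08 with both scores). Glycolytic genes, of which 17 of 19 were above 0, had a median of 0.47, or 0.11 with both scores, 0.28 without HepDKO ZT22 replicate 3 and 0.30 without Control ZT16 replicate 3, with Gapdh (0.62) and Pgk1 (0.52) at an unadjusted p under 0.05. Proteasome subunits were above 0 in 29 of 31, with a median of 0.16, or 0.07 with both scores, and 4 at an unadjusted p under 0.05. The 13 listed symbols of mitochondrially encoded genes were absent from the deposited counts, so these genes could not be analysed.

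**Figure D4:**
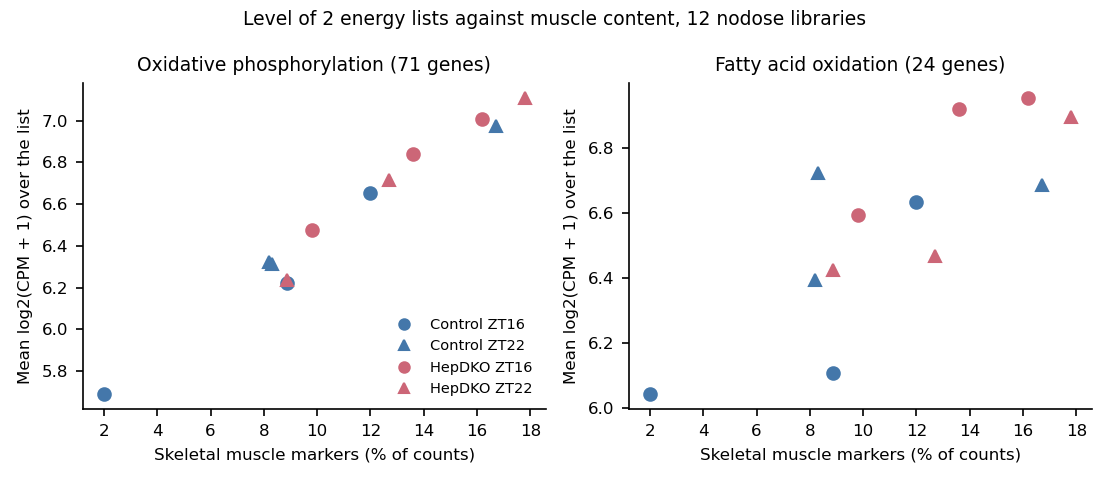
Mean log2(CPM + 1) of the 71 oxidative phosphorylation genes (left) and the 24 fatty acid oxidation genes (right) against the skeletal muscle share of counts (percent), 1 point per library by genotype and time. The oxidative phosphorylation level runs from 5.69 at a muscle share of 1.98% to 7.11 at 17.8% with points of both genotypes between them.

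Fat content and lipid synthesis are described next. Adipocyte markers had 14 of 17 log2 differences above 0 with a median of 0.25, which was 0.16 with both scores and 0.64 without the 3 libraries that stood apart. The median was 0.51 without Control ZT22 replicate 1, 0.16 without Control ZT16 replicate 2 and 0.10 without Control ZT22 replicate 2, the library with the least fat RNA, which was lowest for 15 of the 17 genes. Ucp1, the uncoupling protein of brown fat, had 0.11, 0.873 and 8.02 CPM in Control and 0.787, 2.67 and 63.9 CPM in HepDKO (log2 difference 2.88, SE 1.03). Its high values came from 2 HepDKO ZT16 libraries, with 39.9 and 63.9 CPM, and the third had the lowest HepDKO value, 0.787 CPM. Lipogenic genes had 14 of 19 log2 differences above 0 and a median of 0.34, with 3 at an unadjusted p under 0.05 (2.88% of all genes higher): Dgat2 (0.68), Acacb (0.62) and Me1 (0.44). Unlike the energy lists, their median was larger with both scores, 0.50, where 9 had an unadjusted p under 0.05 beside 2.35% of all genes in that fit. The count was 8 and 9 without Control ZT16 replicate 3 and HepDKO ZT16 replicate 2, 2 without Control ZT16 replicate 1 or 2, Control ZT22 replicate 2 or HepDKO ZT16 replicate 1 or 3, and 1 without HepDKO ZT22 replicate 3, in fits where between 1.8% and 5.66% of all genes were higher. Dgat2, which makes triglyceride and is also in the adipocyte list, had 36.0, 53.4 and 105 CPM in Control and 40.1, 83.5 and 176 CPM in HepDKO. Fasn, the fatty acid synthase, had 427, 751 and 2090 CPM in Control and 438, 1390 and 1980 CPM in HepDKO, over nearly the same range (log2 difference 0.55 and unadjusted p 0.228 in edgeR's quasi-likelihood F test).

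The cholesterol list lay at 0 and moved when the scores were added. Of 24 genes of cholesterol synthesis and uptake, 11 had a log2 difference above 0 and 13 below, 0 had an unadjusted p under 0.05, and the median was -0.01. With both scores all 24 were above 0 (52.4% of all genes), 12 had an unadjusted p under 0.05 (2.35% of all genes higher in that fit) and the median was 0.33. Without scores the median was between -0.11 and 0.14 when single libraries were left out. In 16 of the 24 genes Control ZT22 replicate 2 was the highest library. Myelinating Schwann cells make much cholesterol for their membranes. Of their marker genes, 18 of 18 were below 0 with a median of -0.17, which was 0.20 with both scores and -0.05 without the 3 libraries that stood apart. It was -0.02 without Control ZT22 replicate 2, -0.04 without Control ZT16 replicate 3, -0.10 without HepDKO ZT16 replicate 2 and -0.27 without Control ZT22 replicate 3. In the fit without scores 0 of these Schwann cell genes had an unadjusted p under 0.05.

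Interferon-stimulated genes, which are induced by interferon signalling and block viral replication, leaned higher in HepDKO. Of 34 tested, 27 had a log2 difference above 0 (49.2% of all genes) and 5 an unadjusted p under 0.05 with HepDKO higher (2.88% of all genes), among them Bst2 (0.61), Gbp3 (0.61), Ifit3b (0.49) and Stat2 (0.22). The median was 0.16, and it stayed between 0.13 and 0.21 when any single library was left out, 0.18 with both scores and 0.15 without the 3 libraries that stood apart. The count at an unadjusted p under 0.05 was between 2 and 6 in those fits, with 2 reached without Control ZT22 replicate 2 and 3 without HepDKO ZT16 replicate 3, HepDKO ZT22 replicate 1 or with both scores. At ZT22 it was 7 genes, with a median of 0.24, beside 1.32% of all genes, and at ZT16 it was 1 gene, beside 2.2%, with a median of 0.07. The mean log2(CPM + 1) over the list at ZT22 was 3.998, 3.773 and 3.688 in HepDKO replicates 1, 2 and 3. In Control it was 3.565, 3.568 and 3.743, so HepDKO replicate 1 was the highest and HepDKO replicate 3 lay inside the Control range. In the light phase the median was 0.02. HepDKO ZT22 replicate 1 was the highest library for 13 of the 34 genes, and it also had the highest share of listed lymphocyte markers, 0.0101% of counts against 0.00314% to 0.00947% in the other libraries. It is also the library with the high Muc5b level. Without it the interferon median was 0.14 with 3 genes at an unadjusted p under 0.05. Ifit3b has a near-identical copy, Ifit3, and how their reads were divided is not given in the sources used here. Control mice received a virus as well, with EGFP in place of Cre.

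Macrophage markers leaned the other way. Of 14 tested, 13 had a log2 difference below 0 and 4 an unadjusted p under 0.05, beside 2.56% of all genes: the endotoxin coreceptor Cd14 (-0.48), the haemoglobin scavenger receptor Cd163 (-0.44), the lysosomal protein Cd68 (-0.41) and the mannose receptor Mrc1 (-0.27). The median was -0.25, with -0.29 with both scores and -0.17 without the 3 libraries that stood apart. It was -0.16 without Control ZT22 replicate 1 alone and -0.32 without Control ZT22 replicate 3 alone. The count was 7 without Control ZT22 replicate 3, 2 without Control ZT16 replicate 2 or HepDKO ZT22 replicate 2, and 1 without Control ZT22 replicate 1 or HepDKO ZT16 replicate 3, in fits where between 1.57% and 4.77% of all genes were lower. The summed share of the macrophage list was 0.0606% ± 0.0123 in Control and 0.0474% ± 0.00567 in HepDKO. In the light phase the median was 0.17, with 12 of 14 genes above 0 (52.5% of all genes). Lymphocyte markers were above 0 in 9 of 9 tested with a median of 0.41, which was 0.09 without HepDKO ZT16 replicate 1, 0.26 without Control ZT22 replicate 1, 0.68 without HepDKO ZT16 replicate 3 and 0.30 without the 3 libraries that stood apart. Ltb (1.14), a cytokine of lymphocytes, was the 1 member with an unadjusted p under 0.05. Among 14 inflammation genes Nos2, the inducible nitric oxide synthase, had 0.926, 1.63 and 2.24 CPM in Control and 2.27, 2.49 and 3.68 CPM in HepDKO (log2 difference 0.71). The groups did not overlap, but 2.24 and 2.27 CPM nearly meet and the level is low. Over all genes, 0.104% had every HepDKO library above every Control library. The inflammation list median was -0.14, which was -0.02 without HepDKO ZT22 replicate 3, -0.22 without HepDKO ZT22 replicate 1 and 0.03 without the 3 libraries that stood apart. Nfkbia (-0.44) is the other member with an unadjusted p under 0.05.

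Immediate early genes, which report recent stimulation or handling of cells, had 14 of 18 log2 differences below 0 (50.8% of all genes), a median of -0.24, and 3 at an unadjusted p under 0.05 with HepDKO lower (2.56% of all genes): Fos (-0.75), Klf4 (-0.42) and Nr4a1 (-0.38). Control ZT22 replicate 1 took part here too, since the median was -0.14 with 1 gene at that level without it; there were 5 such genes without Control ZT16 replicate 2 or Control ZT22 replicate 3. Markers of neurons were mostly below 0, in 11 of 12 tested with a median of -0.17, which was -0.04 without Control ZT16 replicate 3, the library poorest in muscle RNA and the highest for 6 of the 12 genes, and -0.05 with both scores. Tubb3 (-0.45) had an unadjusted p under 0.05. Of the 8 vagal neuron markers that could be tested 6 were below 0, the median was -0.11 (-0.21 without Control ZT16 replicate 2) and 0 had an unadjusted p under 0.05. Satellite glia and non-myelinating Schwann cell markers had a median of -0.14, or 0.03 with both scores. The part of muscle RNA in these neuron and glia values was not tested further. Hepatocyte transcripts, whose presence in a ganglion is not known, had a median of -0.57 that was -0.085 without Control ZT22 replicate 1, -0.36 without Control ZT16 replicate 3 and 0.17 without the 3 libraries that stood apart, and Alb ranged from 15.4 to 86.2 CPM.

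The remaining lists are given by their medians, with the range over the 12 fits that leave out single libraries. Their counts at an unadjusted p under 0.05 stand beside 2.88% of all genes higher and 2.56% lower. Median log2 differences were -0.06 for 58 cytosolic ribosomal proteins, with Rps21 (-0.38), Rpl37 (-0.34) and Rpl28 (-0.25) at an unadjusted p under 0.05 (range of the median -0.10 to -0.04), and -0.06 for 25 collagen and basement membrane genes (-0.15 to -0.01), with Fn1 (-0.31) and Postn (-0.35). They were 0.06 (0.02 to 0.13) for 23 genes of endoplasmic reticulum stress, 0.01 (-0.06 to 0.09) for 16 heat shock and cold-inducible genes, 0.02 (-0.07 to 0.08) for 12 endothelial markers and -0.06 (-0.16 to 0.15) for 11 pericyte and smooth muscle markers. Fibroblast and perineurial markers had a median of -0.14 over 16 genes (-0.16 to -0.08), nerve injury genes -0.10 over 9 (-0.15 to -0.02), and cell cycle genes -0.00257 over 12 (-0.01 to 0.06). Hspd1 (0.37), Kdr (0.40), Tagln (-0.38), the perineurial junction gene Cldn1 (-0.27) and the nerve injury gene Csf1 (-0.26) were the members of these lists at an unadjusted p under 0.05. Of 7 neutrophil and mast cell markers 4 were below 0 with a median of -0.12 (-0.16 to -0.05), and the mast cell tryptase Tpsb2 (-0.43) had an unadjusted p under 0.05. The median over 3 erythroid markers was -0.20, with the sign changed to 0.02 without HepDKO ZT22 replicate 3 and a value of -0.00108 without Control ZT16 replicate 2. Over 2 sympathetic markers it was -0.15, with -0.04 without HepDKO ZT22 replicate 3 and -0.35 without HepDKO ZT22 replicate 2. Both lists had 0 genes at that level. Myogenic regulators, which mark muscle stem cells, had a median of 0.53 over 11 genes, 0.34 without Control ZT16 replicate 3, the library poorest in muscle RNA, and 0.04 with both scores. Eya2 was the 1 member with an unadjusted p under 0.05, in the other direction. Pax7, the defining factor of muscle stem cells, did not pass the count filter and was singled out after its values were seen: it had 0 to 3 counts in each Control library and 8 to 11 in each HepDKO library, or at most 0.344 CPM against 1.23 to 2.05 CPM, without overlap and without a test. Of the gland list only 2 genes could be tested, the amylase Amy1 (0.42) and Prol1 (2.85), and both had an unadjusted p under 0.05 with HepDKO higher (2.88% of all genes). Prol1 was at 0 CPM in 3 Control and 2 HepDKO libraries, at most 0.995 CPM in the other Control libraries, and at 4.72, 2.91, 2.76 and 0.364 CPM in the other HepDKO libraries. Without HepDKO ZT22 replicate 1 (log2 difference 2.41), or with both scores (2.36), Prol1 was no longer at that level. Ribosomal protein genes have many pseudogenes, and the amylase genes close copies, so reads of these could be split in ways not known here.

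**Figure D5:**
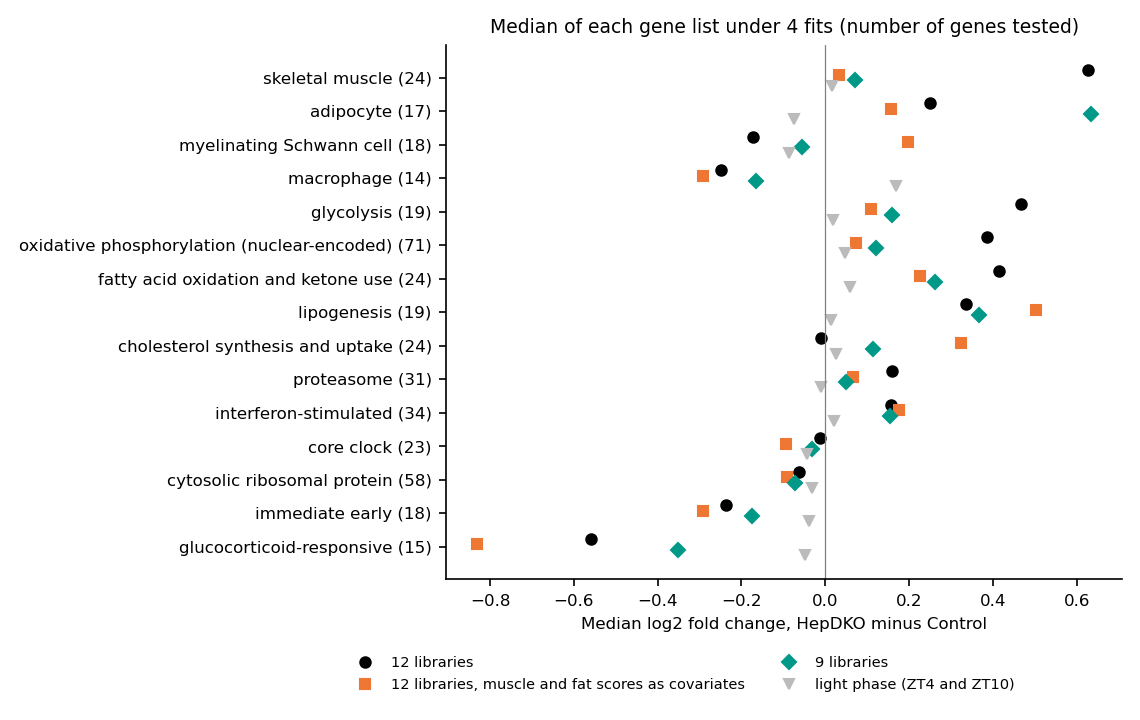
Median log2 difference (HepDKO minus Control) of 15 gene lists, with the number of genes tested, in the dark-phase fit of 12 libraries, with both scores added, in the 9 libraries left without the 3 that stood apart, and in the light phase. The muscle median goes from 0.63 to 0.03 with the scores, one of which is built from genes of that list, the interferon median is between 0.15 and 0.18 in the dark-phase fits, and the glucocorticoid median is below 0 in each fit.

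The dark-phase effect was last set against the light-phase effect in a fit of all 24 nodose libraries, where the light phase is ZT4 and ZT10. The difference between the effects passed for 0 of 14867 genes (0%), and 578 genes (3.89%) had an unadjusted p under 0.05, the smallest adjusted p being 0.985 in edgeR's quasi-likelihood F test (Benjamini-Hochberg). Adh7, an alcohol dehydrogenase that oxidises retinol, had 6.08, 8.97 and 11.7 CPM in dark-phase Control and 2.86, 5.03 and 7.37 CPM in dark-phase HepDKO. Its log2 difference was -0.73 in the dark and 0.46 in the light (difference -1.19, SE 0.287). Ror1 had -0.38 in the dark and 0.17 in the light (difference -0.54), and Lbp, the lipopolysaccharide-binding protein, had 70.8, 101 and 107 CPM in dark-phase Control and 55.1, 70.8 and 77.4 CPM in dark-phase HepDKO, with a difference of -0.54. Tbx3 had a log2 difference of 0.71 in the dark and 0.02 in the light, a difference of 0.70 with an unadjusted p of 0.0224 in that edgeR F test. For the gene lists, the median of the dark minus light difference was -0.59 for glucocorticoid-responsive genes, 0.37 for fatty acid oxidation, 0.37 for oxidative phosphorylation, 0.12 for interferon-stimulated genes and -0.33 for macrophage markers. The dark-phase median of the glucocorticoid list went from -0.56 to -0.25 without Control ZT22 replicate 1, and its dark minus light median without that library is not given here. These dark minus light contrasts share the dark-phase libraries with the comparisons above, so they are not separate support for them.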

How the data were processed

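The authors deposited raw counts per gene symbol, 1 column per library, and the 12 columns of the dark-phase nodose libraries were used; the light-phase nodose columns entered only the comparison with the light phase. Per the submitters' processing notes, FastQC 0.11.7, Trim Galore 0.6.10 and STAR 2.7.10b were used with the mm10 build. The counting tool, its strand setting and the annotation are not given in the sources used here. Of 25229 symbols 25031 matched RefSeq names, and coordinates and promoters are from RefSeq GRCm38.p6. No library repeated another: over 12 pairs of replicates chi-square divided by its degrees of freedom was at least 10.5.

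Counts were analysed in R 4.3.3 with edgeR 4.0.16 (limma 3.58.1): filterByExpr (minimum count 10, minimum total 15), TMM factors and a robust quasi-likelihood fit with time and genotype, or with 1 mean per group for ZT16, ZT22 and their interaction. P values were adjusted over all genes by Benjamini-Hochberg with a threshold of 0.05. Fold changes are HepDKO minus Control on the log2 scale, and p-values measure the spread between pools. Scores used log2(CPM + 1) of 5 genes. Self-tests on simulated data with known changes made 99 calls with 1 false for genotype, and recovered 31% of 1.5-fold and 77% of 2-fold changes for time, among 14212 genes, with 5 false of 113. Floors and counting intervals cover counting error only.

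The genes named were Nr1d1 and Nr1d2, the 10 higher and 10 lower genes with the lowest p for the dark genotype effect, the 3 with the lowest p in each other test (all 15 past the threshold for time), and of each of 35 lists the most abundant members and those with an unadjusted p under 0.05. Tbx3 in the light-phase comparison, and Rn45s, Alb, Fasn, Snap25, Pax7 and Muc5b, were added after their values were seen. The members and lists were chosen with earlier results of these data known, so no list is independent evidence of its direction. Alternatives were DESeq2 1.42.0, limma-voom, RLE factors, no filter, a replicate block, muscle and adipose scores, 1 surrogate variable (sva 3.50.0), leaving out Rn45s, Lars2 and Mir6236, all 24 nodose libraries and leaving out each library; the set of 9 libraries was added after seeing the data. No list was tested as a set. Some genes that this rule names are not reported here.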

Additional observations from a re-analysis of the deposited data

Results flagged for a closer look

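Of 84 sets of 6 libraries checked, 11 had a highest or lowest library set apart from the rest by more than Dixon's critical value of 0.625, and chance flags about 1 in 20 groups. HepDKO ZT22 replicate 3 accounted for 5 of these. It had the highest share of myogenic regulator counts among the HepDKO libraries, 0.245% against 0.131% in the next, and the lowest shares of sympathetic and chromaffin cell markers (0.000509%, next 0.00116%) and of neutrophil and mast cell markers (0.00591%, next 0.0115%). Its Rn45s level was 69200 CPM, where the next HepDKO library had 16400 CPM, and its Lars2 level was 56.9 CPM, next to 34.4 CPM.

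Control ZT22 replicate 1 was the highest Control library for Lars2 (460 CPM, next 191 CPM), Mir6236 (351 CPM, next 59.7 CPM) and Zfp36 (59.6 CPM, next 36.2 CPM). Control ZT16 replicate 3 had the highest share of general neuron markers, 0.0137% against 0.00926% in the next Control library. Control ZT22 replicate 3 had the highest share of erythroid markers (0.0612%, next 0.0425%) and the highest Nr1d1 level (27.1 CPM, next 19.5 CPM).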

How the results depend on the processing

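The genotype comparisons gave 0 genes past the threshold under every alternative except DESeq2, which called 1 gene for the dark genotype effect (Mir6236) and 1 at ZT16 (Nnat). The number of genes that differed between ZT16 and ZT22 depended more on the setting: 77 with DESeq2, 70 with limma-voom, 8 with the adipose score, 25 with 1 surrogate variable, 37 with all 24 nodose libraries, 71 with the 9 libraries, and from 5 to 40 when single libraries were left out. The number of genes at an unadjusted p under 0.05 for the dark genotype effect, 785 as reported, was between 494 (1 surrogate variable) and 1536 (limma-voom) under alternatives other than leaving out a library. Leaving out single libraries aside, 156 of 160 list medians moved by less than the spread between libraries. The spread is the SD of a list's level within groups, which holds the uneven muscle and fat content. Medians that lost most of their size or changed sign with both scores count among the 156, such as those of muscle and Schwann cell genes. The number does not show that medians were stable. The fibroblast median was -0.0547 with the muscle score, -0.057 with both scores and between -0.156 and -0.0794 when single libraries were left out. With the 9 libraries the hepatocyte median was 0.167 and the inflammation median 0.0281. For these changes the cause was not tested.

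Some directions of single genes reversed. For the dark genotype effect, Nr1d1 was between -0.14 and 0.0658 when single libraries were left out, and Nr1d2 was -0.0987 with the muscle score, -0.0682 with both scores, -0.058 with 1 surrogate variable, -0.024 with the 9 libraries and between -0.0317 and 0.153 with single libraries left out. In the same order of settings, the muscle gene Ckm, 0.31 (SE 0.43) without these settings, was -0.205, -0.178, -0.181 and -0.0783. The muscle gene Acta1, 0.65 (SE 0.431) without them, was 0.03 with the muscle score and -0.0371 with the surrogate variable. Both genes are part of the muscle score. Dusp1 was between -0.368 and 0.0675 with single libraries left out. At ZT22, Nr1d1 was -0.125 with the 9 libraries and between -0.00363 and 0.459 with single libraries left out. Nr1d2 at ZT16 was -0.0299 with limma-voom, -0.159 with the muscle score, -0.122 with both scores, -0.0758 with 1 surrogate variable, -0.115 with the 9 libraries and between -0.115 and 0.288 with single libraries left out. Nr1d2 at ZT22 was -0.0449, -0.0227 and -0.0417 with the muscle score, both scores and 1 surrogate variable, and between -0.0666 and 0.196 with single libraries left out. The Nr1d2 interaction was 0.218 with limma-voom, 0.114, 0.0988 and 0.0341 with those 3 settings, 0.218 with the 9 libraries and between -0.247 and 0.156 with single libraries left out. The Nr1d2 dark minus light difference was -0.135, -0.133 and -0.143 with those settings and between -0.175 and 0.165 with single libraries left out.

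The labels link same-numbered replicates of the genotypes at the same time by the number only, and whether they share a batch is not known. Their deviations from the group means correlated between -0.172 and 0.406 over 6 pairs, 4 of them above 0.1. Of 12 libraries 8 were closest to their own number, each compared with the 3 libraries of the other genotype at its time. With a replicate block, 0 genes passed for the dark genotype effect (723 at an unadjusted p under 0.05), 0 at ZT16 (582), 0 at ZT22 (366), 0 for the interaction (291), 0 for dark minus light (540) and 14 for time (934). Depth limits genes of a few CPM most, since 1 CPM is 3 to 9 counts here, and 22% of 1.5-fold genotype changes were recovered in simulated data.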
